A study of Mus musculus with 8 samples.

Results

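The genes described here are 10 genes of RNA processing, chromatin and the Golgi apparatus, Rnf20, Golgb1, Trip11, Dicer1, Ubap2l, Tnrc18, Dhx9, Rcor3, U2surp and Baz1b, out of 15203 genes tested. They were chosen because of their ratios after *Bifidobacterium bifidum*, so those ratios are given as a description with no test. Their probes were the non-control probes of the array whose transcript belongs to one of the genes, which gave 26 of 41174 distinct probes. All 10 genes had at least 1 probe above the filter on dim probes, and 25 of the 26 probes passed it. The mouse macrophage-like line RAW 264.7, which comes from BALB/c mice, was kept for 6 h with *B. bifidum* (3 arrays), *Bacillus clausii* (3 arrays) or *Lactobacillus acidophilus* (2 arrays), each at a multiplicity of infection of 1, and was compared with time-matched untreated cells. Every array carried RNA of treated cells in Cy5 and RNA of untreated cells in Cy3, without a dye swap, so any difference in how a probe binds the dyes remained in the ratios. The design text states 3 biological replicates for each condition, but nothing ties an array to a culture of its own or says whether arrays shared untreated RNA. The p-values therefore measure the spread between arrays, which may be technical. Where arrays shared untreated RNA, the p-values leave out the spread of untreated cells among themselves.

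Slide 1 held *B. bifidum* replicate 3, *B. clausii* replicate 3 and both *L. acidophilus* arrays, and slide 2 held replicates 1 and 2 of *B. bifidum* and of *B. clausii*. *B. clausii* replicate 3 had 12543 probes well above background and the other 7 arrays 21508 to 26473. On that array the brightest probes of Rnf20, Golgb1, Trip11, Dicer1 and Tnrc18 were not well above background in either channel, so their ratios there, and their *B. clausii* means that include them, rest on dim spots. Of the 12 macrophage markers 11 had a probe, and all 11 were well above background in Cy3 on at least 4 arrays, as were 4 of the 5 neutrophil markers with a probe, 2 of 5 fibroblast, 2 of 5 lymphocyte and 1 of 5 epithelial markers. The fibroblast marker Dcn, the lymphocyte markers Cd3g and Ms4a1 and the epithelial markers Epcam and Krt19 were not above background in Cy3 on any array. The summed intensity of the macrophage markers was 145000 to 420000 in Cy5 and 150000 to 418000 in Cy3 over the arrays, that of the neutrophil markers 234 to 61900 and 226 to 49300, and that of each of the other 3 lists was at most 1990 in either channel. Of the 24 markers of macrophages and of other cells that were measured, Mpeg1, named after its value was seen, passed the test in *B. clausii* (log2 ratio −0.86 ± 0.20, SE, limma adjusted p = 0.0495) and none passed in the other strains. With *B. clausii* the macrophage list had a median of −0.36, beside −0.01 over all genes, with 10 of its 11 genes below 0, and its median was −0.56 on slide 2 and 0.01 on slide 1. Its median was 0.07 with *B. bifidum* and 0.08 with *L. acidophilus*, with 4 of 11 below 0 in each. The part of these markers in the results was not tested. In such cultures fewer cells of a kind and less RNA per cell cannot be told apart.

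The genes act at separate steps between chromatin and membrane traffic. Rnf20 ubiquitinates histone H2B, Baz1b and Rcor3 belong to chromatin complexes, U2surp and Dhx9 act on nuclear RNA, Dicer1 cuts precursors of microRNAs, Ubap2l is a protein of stress granules, and Golgb1 and Trip11 are golgins, long coiled-coil proteins that tether vesicles at the Golgi. In macrophages the Golgi and the RNA machinery serve the production of cytokines and surface receptors.

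After *B. bifidum*, 9 of the 10 genes had a mean log2 ratio of treated over untreated cells below 0, and Dhx9 alone was above it. A negative log2 ratio means a lower brightness in treated cells. Each gene is represented here by its brightest probe. The median over the 10 genes was −1.07, beside −0.01 over all genes, and 8 of the 10 were below 0 on all 3 arrays, as were 22.7% of all genes. The median of the 10 was −1.53 and −1.10 on the slide 2 arrays and −0.67 on the slide 1 array. For 9 of the 10 genes the ratio was farther from 0 on both slide 2 arrays than on slide 1, Ubap2l being the exception. The central 90% of all genes lay between −0.58 and 0.42 and between −0.53 and 0.35 on the slide 2 arrays, and between −0.35 and 0.30 on the slide 1 array.

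**Figure D1:**
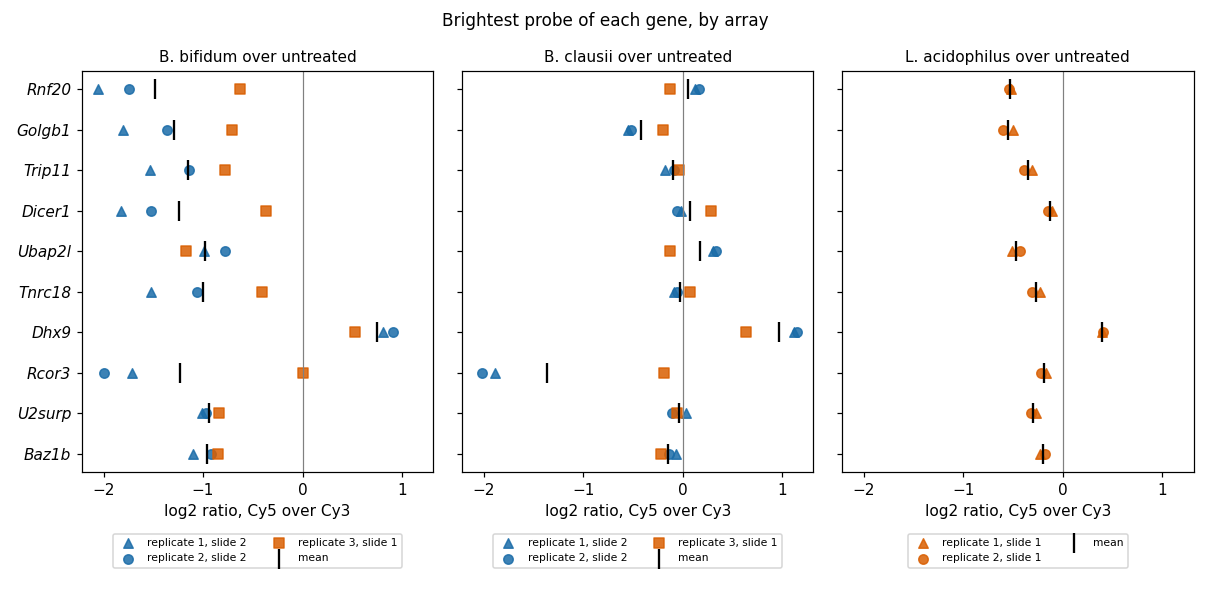
Log2 ratio of treated (Cy5) over untreated (Cy3) cells for the brightest probe of each of the 10 genes, 1 panel per strain, with a point per array coloured by slide and a bar at the mean. In the B. bifidum panel 9 genes have a mean below 0 and Dhx9 one above it, and Rcor3 is low on slide 2 with both B. bifidum and B. clausii.

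Promoters from RefSeq (GRCm38.p6, the 250 bases before the gene start) were found for 9 of the 10 genes. The promoters of Dhx9 and U2surp are shown because these genes lay on opposite sides of 0 and both hold the letters CCGGAAG, and that of Baz1b because it holds CCAAT and the gene was low on all 3 *B. bifidum* arrays. Capitals mark matches on either strand to the letters searched, and no 2 matches overlapped in these 3 promoters. Dhx9 is on the minus strand at chr1:153487661-153487910, U2surp on the minus strand at chr9:95511997-95512246 and Baz1b on the plus strand at chr5:135187073-135187322.
Dhx9: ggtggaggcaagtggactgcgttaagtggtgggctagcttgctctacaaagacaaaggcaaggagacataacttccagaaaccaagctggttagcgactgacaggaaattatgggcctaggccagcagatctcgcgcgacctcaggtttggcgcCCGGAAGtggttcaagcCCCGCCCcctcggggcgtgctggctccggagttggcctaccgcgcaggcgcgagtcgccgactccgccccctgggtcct
U2surp: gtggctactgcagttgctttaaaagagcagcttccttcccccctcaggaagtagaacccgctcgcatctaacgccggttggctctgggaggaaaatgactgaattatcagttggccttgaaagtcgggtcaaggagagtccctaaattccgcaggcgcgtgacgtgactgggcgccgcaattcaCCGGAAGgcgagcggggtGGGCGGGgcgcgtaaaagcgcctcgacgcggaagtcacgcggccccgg
Baz1b: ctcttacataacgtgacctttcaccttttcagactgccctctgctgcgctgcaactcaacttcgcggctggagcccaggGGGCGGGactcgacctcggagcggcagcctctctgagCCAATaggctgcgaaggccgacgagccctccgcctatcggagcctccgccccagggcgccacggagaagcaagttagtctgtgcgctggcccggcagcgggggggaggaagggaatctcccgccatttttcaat

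The letters CCGGAAG stood in the promoters of 2 of the 9 genes and in 6.91% of all 32851 promoters. GGGCGGG stood in 7 of 9, all but Rnf20 and Trip11, and in 23.4% of all promoters. CCAAT was found for Dicer1, Tnrc18 and Baz1b and in 33.8% of all promoters, and TATAAA for Rnf20 and Tnrc18 and in 12.4%. The palindrome of NRF1 (0.782% of all promoters), AAGATGGC (1.56%), the paired GAAA core of the interferon-stimulated response element (2.98%), TGANTCA (6.75%) and the NF-κB motif (1.41%) were not among the letters of any of the 9. A match is a description of the letters and not a site of binding. The 9 promoters ranged from 40.0% to 82.8% in GC content, beside a median of 52.4% over all promoters. None of the letters searched stood in all 8 promoters of the genes that were below 0 after *B. bifidum*, and Dhx9 has the GGGCGGG that most of them have. The part of these letters in the ratios was not tested.

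Among the chromatin genes, Rnf20 had the lowest mean ratio of the 10 after *B. bifidum*. Its log2 ratio at the probe A_51_P328769 was −2.06, −1.75 and −0.63 on the *B. bifidum* arrays, 0.12, 0.17 and −0.12 on the *B. clausii* arrays and −0.52 and −0.54 on the *L. acidophilus* arrays. The *B. bifidum* values on slide 2 lay below those of *B. clausii* there, and the mean was −1.48 ± 0.75 (SD, n = 3), or 35.8% of untreated cells. On slide 1, −0.63 with *B. bifidum* was close to −0.52 and −0.54 with *L. acidophilus*. Its second and dimmer probe, A_52_P231751, gave −0.46, −0.12 and 0.42 with *B. bifidum*, so the probes disagreed by 1.43. Here 2 probes are said to disagree where their strain means differ by over 0.5, or lie on opposite sides of 0 with both beyond 0.25.

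Tnrc18, which encodes a large nuclear protein with a bromo-adjacent homology domain, had a single probe, A_51_P224962. It gave −1.52, −1.07 and −0.40 with *B. bifidum*, −0.09, −0.06 and 0.08 with *B. clausii*, and −0.22 and −0.31 with *L. acidophilus*. The *B. bifidum* arrays were the 3 lowest, with a mean of −0.997 ± 0.56 (SD, n = 3), or 50.1% of untreated cells. No second probe was there to compare.

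Baz1b, the bromodomain partner of the ISWI ATPase Smarca5, was among the genes with the least spread between slides. Its probe A_52_P162744 gave −1.10, −0.92 and −0.85 with *B. bifidum*, −0.07, −0.14 and −0.22 with *B. clausii*, and −0.23 and −0.17 with *L. acidophilus*. The 3 *B. bifidum* arrays were the lowest of the 8 and averaged −0.96 ± 0.13 (SD, n = 3), or 51.5% of untreated cells. The second probe, A_51_P463828, gave 0.17, 0.03 and −0.03 on the same arrays and was above background on 7 of the 8 arrays, so the lower level was measured by 1 probe of the 2.

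Rcor3, a scaffold of the CoREST complexes that carry the histone demethylase Kdm1a, followed the slide. Its log2 ratio at A_51_P390377 was −1.72, −1.99 and 0.00 with *B. bifidum*, −1.89, −2.02 and −0.19 with *B. clausii*, and −0.17 and −0.21 with *L. acidophilus*. All 4 slide 2 arrays were at −1.72 or lower and all 4 slide 1 arrays at −0.21 or higher, whichever the strain. Within slide 2 the mean was −1.86 with *B. bifidum* and −1.96 with *B. clausii*. The dimmer probe A_52_P141404 gave −0.34, −0.04 and 0.07 with *B. bifidum* and −0.62, −0.51 and 0.21 with *B. clausii*. The 2 probes disagreed in both strains. With *B. clausii* the treated channel of the dimmer probe was not above background on any array. There the scanner's own log2 ratios on slide 2 were −2.095 and −1.187, beside −2.511 and −2.19 at the brighter probe, so both were low.

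Among the genes of RNA processing, Dicer1 was low with *B. bifidum* at 1 of its 2 probes. Its brighter probe A_51_P483059 gave −1.82, −1.53 and −0.37 with *B. bifidum*, −0.02, −0.06 and 0.29 with *B. clausii*, and −0.10 and −0.15 with *L. acidophilus*. The mean with *B. bifidum* was −1.24 ± 0.77 (SD, n = 3), or 42.3% of untreated cells, with the slide 1 array far nearer to 0 than the slide 2 arrays. The other probe, A_51_P333060, was above background on the same 7 arrays and gave 0.15, −0.06 and −0.20 with *B. bifidum*. Its values in the other strains lay between −0.14 and 0.08.

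U2surp, a protein of the U2 particle that marks the branch site of introns, gave nearly the same ratio on all 3 *B. bifidum* arrays. Its probe A_52_P294174 gave −1.01, −0.97 and −0.84 with *B. bifidum*, 0.04, −0.10 and −0.06 with *B. clausii*, and −0.27 and −0.32 with *L. acidophilus*. The *B. bifidum* mean was −0.94 ± 0.09 (SD, n = 3), or 52.2% of untreated cells, and no other gene of the 10 had a smaller spread there. A second probe, A_52_P260126, was as low on slide 2 (−1.05 and −0.87) and at 0.10 on slide 1. The third, A_52_P244496, which the files assign to another transcript, gave 0.06, −0.02 and −0.04.

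Dhx9, the RNA helicase A that unwinds double-stranded RNA and RNA-DNA hybrids, was the brightest of the 10 and the only one above 0. Its single probe A_51_P369683 gave 0.81, 0.91 and 0.53 with *B. bifidum*, 1.12, 1.16 and 0.64 with *B. clausii*, and 0.40 and 0.41 with *L. acidophilus*. All 8 ratios were above 0, and within each slide those of *B. clausii* were the highest. The *B. bifidum* mean of 0.75 ± 0.20 (SD, n = 3) equals 168% of untreated cells. With each array centred on its median in place of the loess curve, it was 0.08, beside −0.36 over all genes, which is 0.43 above them. No array was saturated at this probe.

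Ubap2l differed between strains at its brightest probe, A_52_P461517. It gave −0.99, −0.78 and −1.17 with *B. bifidum*, 0.30, 0.33 and −0.12 with *B. clausii*, and −0.51 and −0.43 with *L. acidophilus*. The *B. bifidum* mean was −0.98 ± 0.20 (SD, n = 3), or 50.6% of untreated cells, and here the slide 1 array was the lowest. Of its 3 other probes, A_52_P207449 is assigned by the files to the same transcript and gave −0.05, 0.09 and −0.15, while A_52_P110776 and A_52_P585021, assigned to another, stayed between −0.30 and 0.17 with *B. bifidum*. With *B. clausii* the brightest probe was the highest of the 4, and A_52_P585021 was the lowest at −0.79, −0.90 and −0.15, which missed the threshold (limma over all probes, adjusted p = 0.051).

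Of the golgins, Golgb1, or giantin, was below 0 at its brightest probe on all 7 arrays where that probe was above background. A_51_P383599 gave −1.80, −1.37 and −0.71 with *B. bifidum*, −0.55, −0.52 and −0.20 with *B. clausii*, and −0.50 and −0.60 with *L. acidophilus*. The *B. bifidum* mean was −1.29 ± 0.55 (SD, n = 3), or 40.8% of untreated cells, and on slide 1 its −0.71 stood beside −0.50 and −0.60 with *L. acidophilus*. A second probe, A_52_P675052, was low on slide 2 only, with −1.02 and −0.74 against 0.01 on slide 1. The probe A_52_P336157, above background on all 8 arrays, went the other way, with 0.29, 0.21 and 0.42 on the *B. bifidum* arrays. The dim probes A_52_P455055 and A_51_P211584 were above background on 3 arrays each and gave −0.30 to 0.08 with *B. bifidum*.

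Trip11, the golgin known as GMAP-210, was low with *B. bifidum* at the brightest of its 4 probes. The brightest, A_51_P376623, gave −1.53, −1.14 and −0.78 with *B. bifidum*, −0.18, −0.09 and −0.04 with *B. clausii*, and −0.31 and −0.39 with *L. acidophilus*. The *B. bifidum* mean was −1.15 ± 0.38 (SD, n = 3), or 45.1% of untreated cells, lower on every array than any value of the other strains. The probe A_52_P45175 gave −0.25, −0.31 and 0.35, and A_52_P151198 gave −0.26, −0.02 and −0.15. On these arrays the treated channel of A_52_P151198 was not above background. The scanner's own log2 ratios for it were −1.68, −0.705 and −1.009, so this probe cannot show an unchanged level. The fourth, A_51_P362566, was above background on 1 array and was not kept.

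Over the 10 genes the low values with *B. bifidum* thus came mostly from the brightest probe of a gene. Of the 10 brightest probes 9 had a mean below −0.5, against 2 of the 15 dimmer ones, which ranged from −0.61 to 0.31 with a median of −0.06. The 8 genes with several kept probes each had at least 1 disagreeing pair with *B. bifidum*, 2 had one with *B. clausii* and 3 with *L. acidophilus*. Over all genes with several kept probes the shares were 8.70%, 10.9% and 3.20% in those strains. Since the brightest probe's ratio with *B. bifidum* chose the genes, the 8 of 8 is a description. The brightness of a probe was 8.24 to 13.58 (log2) for the brightest and 6.53 to 9.18 for the others, and the offset of 50 added to each spot draws dim probes toward 0. In the scanner's own ratio, which has no such offset, the medians were −1.44 for the brightest probes and −0.15 for the others. The others ranged from −1.54 to 0.63 there. Golgb1 A_52_P675052 (−1.54), Trip11 A_52_P151198 (−1.13) and U2surp A_52_P260126 (−0.74) were low among them. The part of brightness in these differences was not tested. With the mean of a gene's kept probes in place of the brightest, the median over the 10 genes was −0.48.

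**Figure D2:**
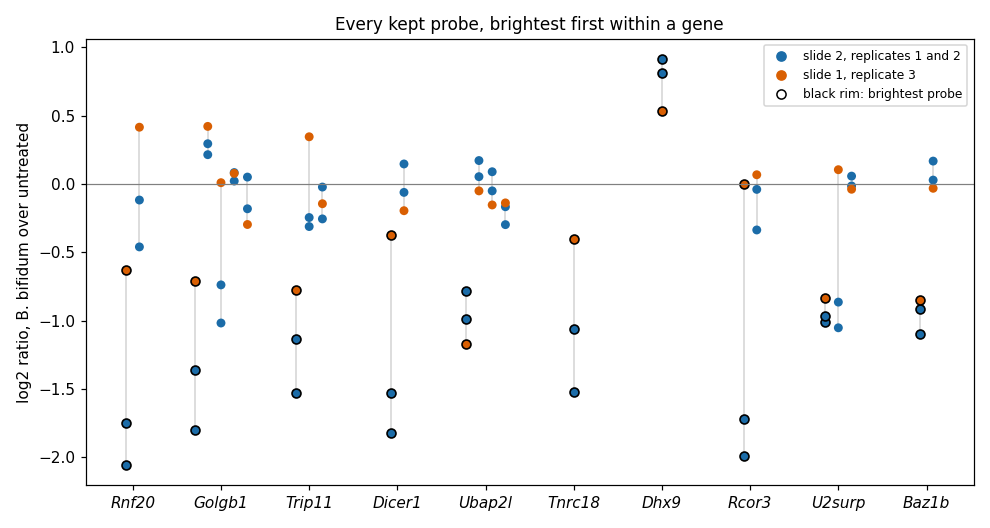
Log2 ratio of B. bifidum-treated over untreated cells for each of the 25 kept probes, grouped by gene with the brightest probe leftmost and rimmed in black, and with a point per array coloured by slide. The brightest probes of 9 genes lie low, while 12 of the 15 other probes have a mean within 0.25 of 0.

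The ratios of *B. clausii*-treated over untreated cells came from arrays that did not choose the genes, and 1 of the 10 genes passed. Whether these arrays shared untreated RNA with those of *B. bifidum* is not known. Dhx9 rose by 0.97 ± 0.11 on the log2 scale (SE, n = 3, limma adjusted p = 0.0198), which is 1.96-fold, and was above 0 on 3 of 3 arrays. Its probe was above 0 on every array of the other strains as well. There was no dye swap, and the part of a dye effect at this probe was not tested. Of all genes 4.77% passed in this strain, 2.17% up and 2.60% down. The call of Dhx9 was lost when *B. clausii* replicate 1 or 2, *B. bifidum* replicate 1 or 2 or either *L. acidophilus* array was left out (adjusted p = 0.06 to 0.33), although the arrays of the other strains enter only through the shared spread, and with each array centred on its median (0.51, adjusted p = 0.125). Rcor3 had a log2 ratio of −1.36 ± 0.42 (SE, adjusted p = 0.0764) and Golgb1 one of −0.42 ± 0.17 (adjusted p = 0.137). The remaining 7 genes lay between −0.14 and 0.17, 4 of the 10 were below 0 on all 3 arrays as were 21.3% of all genes, and the median of the 10 was −0.03, beside −0.01 over all genes.

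A fit with a slide term gave a rise of Dhx9 and a fall of Rcor3 in *B. clausii* (log2 ratios 0.90 ± 0.05 and −1.06 ± 0.07, SE, adjusted p = 0.000717 for each), where 10.7% of all genes rose and 14.5% fell. Within slide 2, which held replicates 1 and 2 of *B. clausii*, the brightest probes of Dhx9 and Ubap2l rose (1.14 and 0.32). Those of Rcor3 and Golgb1 fell (−1.96 and −0.54), and the adjusted p of these genes ran from 0.00012 to 0.00863. In that fit 25.7% of all genes rose and 30.3% fell, 8503 of 15203 genes in all. The other probes of Ubap2l had negative *B. clausii* means on slide 2 (−0.28, −0.24 and −0.84). On slide 1 the lone *B. clausii* array, the one with the fewest probes above background, gave 0.64 for Dhx9 and −0.19 for Rcor3.

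With *L. acidophilus*, 0 of the 10 genes passed limma's test, and 0% of all genes did. At an unadjusted p under 0.05 there were 6 of the 10, beside 7.26% of all genes. Ubap2l (−0.47 ± 0.13, SE, n = 2) and U2surp (−0.29 ± 0.08) had the smallest p, and their adjusted p was 0.645. All but Dhx9 were below 0 on both arrays, 9 of 10 against 34.3% of all genes, and the median was −0.28 beside 0.01 over all genes. With each array centred on its median, Dicer1 and Rcor3 were above 0 (0.06 and 0.10), and 9 of the 10 remained below the median of all genes, which was 0.14. Both arrays lay on slide 1, where a single array of each other strain can be set beside them. With the slide as a block, Dhx9 rose and Golgb1 and Rcor3 fell (0.61, −0.85 and −1.10, adjusted p = 0.0175, 0.031 and 0.0151; 1.00% of all genes rose and 1.74% fell). Those values are set at the average of both slides from the slide difference of the other strains. No *L. acidophilus* array lay on slide 2, and Rcor3 was at −0.17 and −0.21 on the arrays themselves. For Golgb1 the slide difference includes *B. clausii* replicate 3, where its brightest probe was not above background. Its other probes had *L. acidophilus* means of 0.22, 0.02, 0.01 and 0.12.

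Taking every kept probe on its own, 1 of the 25 passed with *B. clausii*, that of Dhx9 (adjusted p = 0.0261), and 0 of 25 with *L. acidophilus*. Over all probes 0.542% rose and 0.640% fell with *B. clausii*.

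Set against each other at the brightest probes, *B. bifidum* was lower than *B. clausii* at 9 of the 10 genes and higher at Rcor3 (0.13). The median difference was −0.94, and −0.36 with the mean of a gene's kept probes. This is a description, since it uses the ratios that chose the genes. Within slide 2 the difference was −2.05 for Rnf20, −1.64 for Dicer1 and −1.22 for Tnrc18. No slide 1 difference is given for these genes or for Golgb1 and Trip11, whose brightest probes were not above background on the slide 1 array of *B. clausii*. For Ubap2l the difference was −1.21 within slide 2 and −1.05 within slide 1, and for U2surp −0.96 and −0.78. At the other probes of Ubap2l *B. bifidum* was the higher strain, with means of 0.06, −0.04 and −0.20 beside −0.165, −0.185 and −0.61. Dhx9 differed by −0.27 and −0.11, its ratio being above 0 in both strains.

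The 2 channels behind the ratios showed where the slides parted. For Dicer1 the log2 brightness of treated cells was 9.20, 8.50 and 8.62 with *B. bifidum* and that of untreated cells on the same arrays 11.03, 10.03 and 8.99. With *B. clausii* treated cells gave 11, 10.90 and 7.22 and untreated cells 11.02, 10.95 and 6.93, where the last array was not above background, and with *L. acidophilus* treated cells gave 8.74 and 8.71 and untreated cells 8.85 and 8.86. The treated level with *B. bifidum* on slide 2 lay around the level of either channel on the *L. acidophilus* arrays of slide 1. The untreated level was higher on slide 2 than on slide 1. Within slide 2 the treated level was 9.20 and 8.50 with *B. bifidum*, beside 11 and 10.90 with *B. clausii*. The slides also differ in scan range, and the part of either channel in the low ratios was not tested.

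Untreated levels were compared between slides on the *B. clausii* and *L. acidophilus* arrays, whose ratios did not choose the genes. Whether these arrays shared untreated RNA with those of *B. bifidum* is not known, so the comparison may not be free of that choice. The median difference of the 10 genes, slide 2 minus slide 1, was 1.26 (log2), beside 0.11 over all genes. Rcor3 was lower on slide 2 (10.66 and 11.09 on slides 2 and 1), and Dhx9 differed by 0.30. Only U2surp passed limma's test (0.83 ± 0.14, SE, n = 2 and 3, adjusted p = 0.043), with 4.89% of all genes higher and 2.39% lower. Dicer1 had 10.99 on slide 2 and 8.21 on slide 1 (adjusted p = 0.0794), Rnf20 11.88 and 9.41 (adjusted p = 0.0978) and Tnrc18 9.88 and 7.62 (adjusted p = 0.0657). The slide 1 means of these 3 genes include *B. clausii* replicate 3, where their probes were not above background. Without *B. clausii* replicate 3, 8 of the 10 genes were higher on slide 2, all but Dhx9 and Rcor3, and the median difference was 0.95, while 35.8% of all genes were higher and 26.4% lower. Slide, scan range and culture cannot be told apart in this comparison, and their part in the ratios was not tested.

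For Rcor3 it was the treated channel that parted the slides. Treated cells gave 9.02, 9.08 and 10.53 with *B. bifidum*, against 10.74, 11.08 and 10.52 in untreated cells. With *B. clausii* treated cells gave 8.73, 8.68 and 12.15 and untreated cells 10.62, 10.69 and 12.33. On the slide 2 arrays of both strains the treated cells were dimmer, and on the slide 1 arrays both channels were alike, with *B. clausii* replicate 3 the brightest in each. For Dhx9 the untreated level ranged from 12.56 to 13.38 over all 8 arrays, and the treated one was higher on each.

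**Figure D3:**
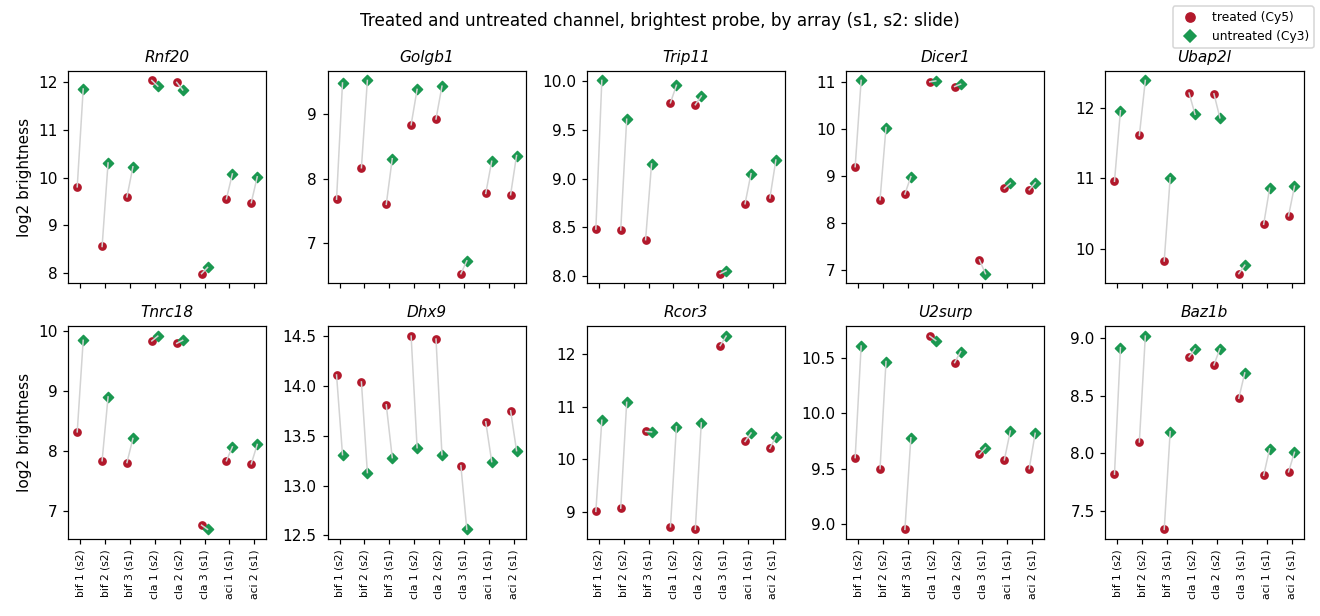
Log2 brightness of the brightest probe of each gene in treated (Cy5) and untreated (Cy3) cells on each array, after normalisation within and between arrays, with the slide in brackets after the array; each panel has its own vertical scale. For Dicer1 the untreated level is 11.03 and 10.03 on the B. bifidum arrays of slide 2 and 8.99 on that of slide 1, and for Dhx9 the treated level is the higher one on all 8 arrays.

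Genes of the same complexes and families, 155 of them measured and none of the 10 among them, had list medians between −0.22 and −0.02 with *B. bifidum*. With *B. bifidum* 8 of the 155 passed, 2 up and 6 down (5.16%), where 1.72% of all genes passed, 0.506% up and 1.22% down. With *B. clausii* 7 passed, 4 up and 3 down (4.52%, beside 4.77% of all genes), and with *L. acidophilus* 0 passed, with 4 at an unadjusted p under 0.05, beside 7.26% of all genes. The lists were written with results of these data known. With a slide term 6 of the 155 rose and 26 fell with *B. bifidum* (3.96% and 10.0% of all genes), and 21 rose and 31 fell with *B. clausii* (10.7% and 14.5%). Within slide 2, 26 rose and 60 fell with *B. bifidum* (15.1% and 23.6% of all genes), and 41 rose and 65 fell with *B. clausii* (25.7% and 30.3%). None of the calls over all arrays with *B. bifidum* or *B. clausii* was left in a fit of the scanner's own ratios or of median-centred arrays.

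The stress granule proteins, to which Ubap2l belongs, had a median of −0.21 with *B. bifidum*, with 3 of 20 down and 16 of 20 below 0, beside 53.6% of all genes below 0. G3bp2, a core protein of these granules, was at −0.70, −0.65 and −0.37 with *B. bifidum* and fell by 0.57 on the log2 scale (adjusted p = 0.0282). The helicase Ddx6 fell by 0.48 (adjusted p = 0.0401). The RNA-binding protein Fxr2 fell with *B. bifidum* by 0.40 (adjusted p = 0.043) and with *B. clausii* by 0.48 (adjusted p = 0.0343), and gave −0.30 and −0.44 with *L. acidophilus*. With *B. clausii* the list's median was −0.27, with Prrc2b down by a log2 ratio of −0.42 and the deubiquitinase Usp10 up by 0.37.

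Of 23 genes of the U2 particle and branch site recognition, to which U2surp belongs, 1 fell with *B. bifidum* and 2 rose with *B. clausii*. The splicing factor Rbm25 was at −1.11, −1.07 and −0.41 with *B. bifidum*, a mean of −0.86 ± 0.13 (SE, adjusted p = 0.0222), with −0.42, −0.44 and −0.15 in *B. clausii*. It was lower on slide 2 than on slide 1 in both strains. The U2 protein Snrpa1 rose with *B. clausii* by 0.51 (adjusted p = 0.0372) and Sf3a3 by 0.44 (adjusted p = 0.0467).

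Among 15 genes of ISWI remodelling, Smarca5, the ATPase partner of Baz1b, was at −0.57, −0.43 and −0.34 with *B. bifidum* and fell by 0.45 (adjusted p = 0.0278). Among 16 helicases of the DHX family without Dhx9, Dhx29, which helps ribosomes scan structured leaders, was at −0.67, −0.45 and −0.34 and fell by 0.49 (adjusted p = 0.0295), opposite in sign to Dhx9. Of 14 CoREST genes, Gse1 rose with *B. bifidum* by 0.44 (adjusted p = 0.0388), and Gtf2i fell with *B. clausii* by 0.38 (adjusted p = 0.0398). Gse1 was above 0 on all 8 arrays, from 0.21 to 0.67.

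Of 34 measured Golgi tethers, golgins and their regulators, Rab1a passed with *B. bifidum* (0.56 and 0.59, adjusted p = 0.0305) and with *B. clausii* (0.57 and 0.53, adjusted p = 0.0372). Rab1a, a GTPase of traffic into the Golgi, had no value on the slide 1 arrays of these strains, and gave −0.06 and −0.01 with *L. acidophilus*. The other 33 did not pass, and the list's median with *B. bifidum* was −0.07. The 16 genes of the small RNA machinery, with Dicer1 left out, and the 17 of histone H2B ubiquitination had none that passed in any strain, with medians of −0.08 and −0.02 with *B. bifidum*. Nor did any of the 6 measured close relatives of the 10 genes pass in any strain, namely Drosha, Rnf40, Baz1a, Rcor1, Rcor2 and Ubap2. Baz1a was at −0.85 with *B. bifidum* (adjusted p = 0.0512) and Rnf40 at 0.00 (adjusted p = 0.986).

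**Figure D4:**
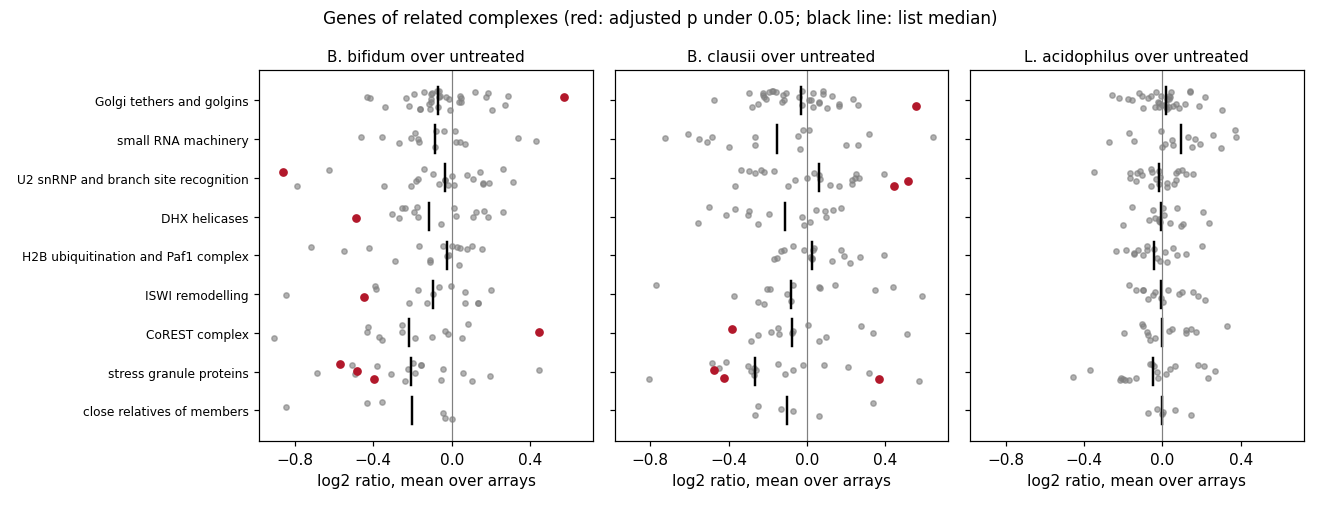
Mean log2 ratio of treated over untreated cells for genes of related complexes, a point per gene and a panel per strain, with genes past an adjusted p of 0.05 in red and the median of each list as a black line. The list medians with B. bifidum lie between −0.22 and −0.02. That of the 10 genes, which were chosen for their ratios in this strain, was −1.07.

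The genes outside the 10 whose 8 ratios lay nearest to the mean profile of the 10 were Nvl, Gtpbp4, Mitf, Larp7 and Mosmo, by the root mean square difference over the arrays among 14297 genes. The difference was 0.09 for Nvl and 0.15 for Mosmo, beside 0.11 for Tnrc18 and 0.14 for Trip11 among the 10 themselves. Nvl, an AAA ATPase of ribosome assembly, gave −1.35, −0.90 and −0.42 with *B. bifidum*, −0.14, −0.22 and −0.08 with *B. clausii*, and −0.21 and −0.24 with *L. acidophilus*. Mitf, a transcription factor of macrophages and melanocytes, gave −1.08, −0.99 and −0.78 with *B. bifidum*, and its values with the other strains lay between −0.25 and −0.02. Dhx9 and Rcor3 were the farthest of the 10 from their mean profile, at 1.31 and 1.01.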

How the data were processed

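Scanner files of 8 two-colour arrays were used. Per the file headers they come from Agilent Feature Extraction 10.7.3.1, and the submitters' processing notes give 10.5.1.1. The deposited files hold the median brightness of each spot and of its background as linear intensity, with the software's processed intensity and the log10 of Cy5 over Cy3. The value table that the authors deposited equals that log10 ratio to within 0.005 on every array. The median signal of a spot was used, and a mean signal was not used here.

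In R 4.3.3 with limma 3.58.1 the background was corrected with normexp (offset 50) and log2 ratios were normalised by loess, with control spots at weight 0 and outlier spots left out. The filter on dim probes asked for a spot well above background, in either channel, on 2 or more arrays, and kept 28598 probes. They were named through their transcripts with a RefSeq gene table (GRCm38.p6), which names 29169 of 43379 probe features and gave 15203 genes. The brightest probe stood for its gene. A mean per strain was fitted over all 8 arrays with lmFit and eBayes and tested against 0, and p-values were adjusted by the Benjamini-Hochberg method over all genes, with a threshold of 0.05. Untreated levels were compared between slides after Aquantile normalisation. The number of arrays limits the precision. The fit per strain was tested on simulated gene ratios without a slide effect, and the steps before it were not simulated.

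The members, the gene lists, the motifs and the tests were chosen with earlier results of these data known. From each list and strain, up to 3 genes with the smallest p were named among those past the threshold whose arrays all had one sign, and the 5 genes nearest to the mean profile were named without clones, tags and predicted genes. The alternatives were other background corrections, scalings, filters, a mean over probes, eBayes with a trend, the slide or the replicate number as a block, single slides, only a strain's arrays, and each array left out.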

Additional observations from a re-analysis of the deposited data

Results flagged for a closer look

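In 4 cases every array of a strain that had a value moved one way and every array of another strain the opposite way. None of these differences was tested. At the dim Golgb1 probe A_51_P211584 the mean log2 ratio was −0.19 with *B. clausii* and 0.12 with *L. acidophilus*, a difference of −0.31, and the probe was above background on 3 arrays. At the Dicer1 probe A_51_P333060 it was 0.05 with *B. clausii* and −0.10 with *L. acidophilus*, a difference of 0.15. This probe was not above background in either channel on *B. clausii* replicate 3. Rab1a was higher by 0.61 with *B. bifidum* than with *L. acidophilus* (0.57 and −0.04) and by 0.59 with *B. clausii* (0.55 and −0.04). Replicate 3 of *B. bifidum* and of *B. clausii* had no value for Rab1a. The Rab1a values of *B. bifidum* and *B. clausii* come from slide 2 and those of *L. acidophilus* from slide 1, so strain and slide cannot be told apart.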

How the results depend on the processing

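The values for single genes kept their side of the threshold in 406 of 430 tested cases, and 18 of the 406 changed sign with no call on either side, all with *B. clausii* or *L. acidophilus* and all at Dicer1, Rcor3, Rnf20, Tnrc18 or Ubap2l. With *B. clausii* and median centring Rnf20 was at −0.43, Dicer1 at −0.40 and Ubap2l at −0.33, and with the mean of probes Ubap2l was at −0.20. Of the other tested cases, 9 lost a call, all of Dhx9 with *B. clausii*, 14 gained one and 1 changed sign and was called. Of the 220 values with *B. bifidum*, 197 moved by less than the spread between arrays, 22 by more and 1 changed sign. These 2 values that changed sign were Rcor3 with *B. bifidum* on slide 1 alone, at 0.003, and Rcor3 with *L. acidophilus* with the replicate block, at 0.42. The causes were not tested.

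Of the 10 genes, 1 passed with *B. clausii*, but 0 did with median centring, on slide 1 alone or in a fit of that strain's arrays alone, 2 with the slide as a block, 4 on slide 2 alone and 3 with the replicate block. Leaving out an array gave 0 to 3. With *L. acidophilus* 0 passed, against 3 with the slide as a block and 2 with the replicate block, and leaving out an array gave 0. The median with *B. bifidum* (−1.07) was −1.65 with median centring, where that of all genes was −0.36, and −0.48 with the mean of a gene's probes. Median centring put the median of all genes at −0.22 with *B. clausii* and 0.14 with *L. acidophilus*, and relative to them that of the 10 genes was −1.29, −0.25 and −0.26 with *B. bifidum*, *B. clausii* and *L. acidophilus*. The difference between *B. bifidum* and *B. clausii* (−0.94) was −0.36 with the mean of probes and −0.57 on slide 1 alone, where the brightest probes of 5 genes were not above background with *B. clausii*. In the untreated channel 1 gene passed, 0 without background correction, and 0 to 8 with an array left out, 8 being the count without *B. clausii* replicate 3. Probe by probe, 0 passed with *B. clausii* in the scanner's ratio.

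Of the 155 genes of related complexes, 7 passed with *B. clausii* and 8 with *B. bifidum*. With *B. clausii* the count was 4 without background correction and 1 with a trend in eBayes, and with *B. bifidum* it was 4 with the trend. It was 0 for both strains in the scanner's ratio, the deposited table, median centring, slide 1 alone and a fit of each strain alone. With a slide term there were 52 with *B. clausii*, 32 with *B. bifidum* and 7 with *L. acidophilus*, and on slide 2 alone 106 with *B. clausii* and 86 with *B. bifidum*. Leaving out an array gave 0 to 64 with *B. clausii* and 0 to 50 with *B. bifidum*. Over all genes, 725 passed with *B. clausii* and 262 with *B. bifidum*, against 0 and 3 with median centring, 3833 and 2124 with the slide as a block, and 5479 with *B. clausii* without its replicate 3.

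With the replicate block the 155 genes gave 61 calls with *B. clausii*, 39 with *B. bifidum* and 7 with *L. acidophilus*. Whether the replicate numbers pair the arrays could not be decided. Deviations of same-numbered arrays correlated at 0.41, 0.30 and 0.46 between *B. clausii* and *B. bifidum*, where the numbers also follow the slides. Differently numbered arrays of these strains on slide 2 correlated at 0.26 and 0.37. Between *L. acidophilus* and the others the values were −0.09 to −0.06. Its 2 arrays deviate from their mean by equal and opposite amounts, and the same-numbered arrays of the others lie on slide 2. A slide 2 fit of *L. acidophilus* was not run, since it has no array there.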
